A study of Lathyrus oleraceus with 6 samples.

Results

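Psat4g208040 and Psat4g208080 are neighbouring pea loci on chromosome 4 that the study describes as RALF-like proteins, with the same best database match for both. They are 2 of the 44756 loci of the gene count table, and they were chosen by their counts, which were higher in treated than in control roots, so their values are given here as a description and not as a test. The libraries came from roots of wild-type pea seedlings of the cultivar Frisson, 4 to 5 days old at the start. The control group of 3 libraries was kept for 24 h in half-strength Jensen's medium, a mineral plant medium, and the CO8-DA group of 3 libraries was kept for the same time in that medium with 1e-05 M CO8-DA. CO8-DA is a mixture of deacetylated chitooligosaccharides, short sugar chains related to the chitin of fungal cell walls, with a main chain length of around 8 units. The methods describe independent biological repeats of several plants each, at a single time and dose, so all root cell types were mixed. Markers of the root could not be looked up, because the annotation used here covers only loci that the study listed.

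Rapid alkalinization factors (RALFs) are small secreted plant peptides with conserved cysteines, named for the rise in pH that they cause outside the cell. In Arabidopsis some are cut from longer precursors by subtilisin-like proteases. They bind receptor kinases with malectin-like domains, of which FERONIA is the best known, and leucine-rich repeat extensins of the cell wall. In the same species their perception inhibits the plasma membrane proton pump, slows the elongation of root cells and modulates immune signalling. Which receptor the pea peptides bind is not addressed by these data.

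Each library held between 12315774 and 19534336 estimated counts in total. Levels are given as CPM, counts per 1000000 counts of the library, scaled by the TMM method of edgeR, which corrects for differences in library composition. Lengths of the loci were not used here, so CPM are compared between groups and never between loci. With a count of 0 a library still allows up to 3 counts, which is 0.245 CPM in control replicate 2, where the sensitivity was lowest. The median log2 fold change of the 21293 loci that passed edgeR's filter on low counts was -0.01. Of the 561 loci called higher, 67.7% had their lowest level of all in control replicate 2, as did both members of the pair. A locus called higher will mostly have a control library as its lowest, and the share over all tested loci was not computed. The part of control replicate 2 in the results was not tested beyond leaving it out.

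Psat4g208040 had 3, 0 and 5 counts in control replicates 1, 2 and 3 and 32, 24 and 38 counts in CO8-DA replicates 1, 2 and 3. These equal 0.203, 0 and 0.357 CPM in the control and 2.50, 1.51 and 1.94 CPM after CO8-DA. The transcript was thus near the limit of detection in every control library and clearly present in every treated one, with no overlap between the groups. The mean level was 0.187 ± 0.179 CPM in control roots and 1.98 ± 0.496 CPM in treated ones (SD, n = 3). Its fitted log2 fold change was 3.29 with a standard error of 0.62. The ratio of the summed counts, 94 against 8 and corrected for library size, was 9.98 with an exact 95% interval of 4.86 to 23.8, and this interval covers counting error only.

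Psat4g208080 had 7, 1 and 6 counts in control replicates 1, 2 and 3 and 41, 33 and 56 counts in CO8-DA replicates 1, 2 and 3. Its levels were 0.475, 0.0816 and 0.429 CPM in the control and 3.20, 2.07 and 2.87 CPM after CO8-DA. Here too the lowest treated library stood well above the highest control library. The mean level was 0.328 ± 0.215 CPM in control roots and 2.71 ± 0.578 CPM in treated ones (SD, n = 3). Its fitted log2 fold change was 2.97 with a standard error of 0.47. The ratio of the summed counts, 130 against 14, was 7.89 with an exact 95% interval of 4.53 to 14.8 for counting error. In whole roots, more RNA per cell and more cells that express a gene cannot be told apart.

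**Figure D1:**
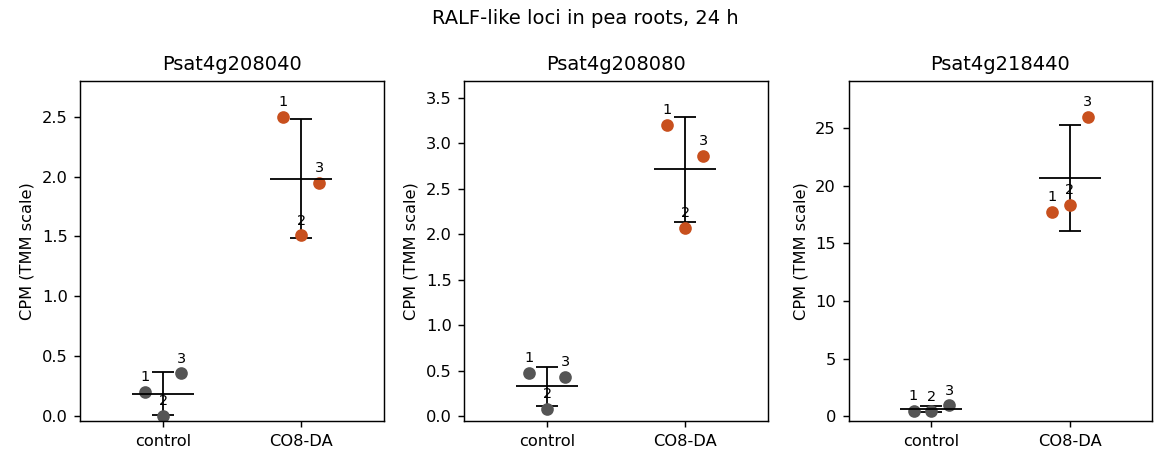
Levels of the pair and of the other RALF-like locus, Psat4g218440, in each library, in CPM on the TMM scale, with control libraries in grey and CO8-DA libraries in orange. Numbers are replicate numbers, lines are means and bars are SD over 3 libraries, and the vertical axes differ between panels; in each panel all CO8-DA libraries lie above all control libraries, and control replicate 2 is the lowest library.

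Both loci met the study's criteria in edgeR's quasi-likelihood test, with adjusted p below 0.05 and a change of 1 or more on the log2 scale, which 2.63% of the tested loci met in the upward direction. All CO8-DA libraries lay above all control libraries at 13.7% of the tested loci, and 10.3% were higher at an unadjusted p under 0.05. Because this contrast chose the pair, nothing is read from these shares. DESeq2, the tool of the study, called both as well, and 2.94% of the loci it tested were called higher. The calls were sensitive to leaving out a treated library. Neither locus was called without CO8-DA replicate 1 or without CO8-DA replicate 3, and only Psat4g208080 was called without CO8-DA replicate 2. Both were called without any one control library. Over all loci, the number called higher fell from 561 to 345, 338 and 349 without CO8-DA replicates 1, 2 and 3. Without control replicates 1, 2 and 3 it was 778, 450 and 409. The size of the difference moved mainly with the control libraries, whose counts were few. For Psat4g208040 the log2 fold change was 2.78 without control replicate 2, its library at 0, and 4.07 without control replicate 3, its highest control library. For Psat4g208080 it was lowest at 2.56, without control replicate 2, and highest among these fits at 3.31, without control replicate 1.

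**Figure D2:**
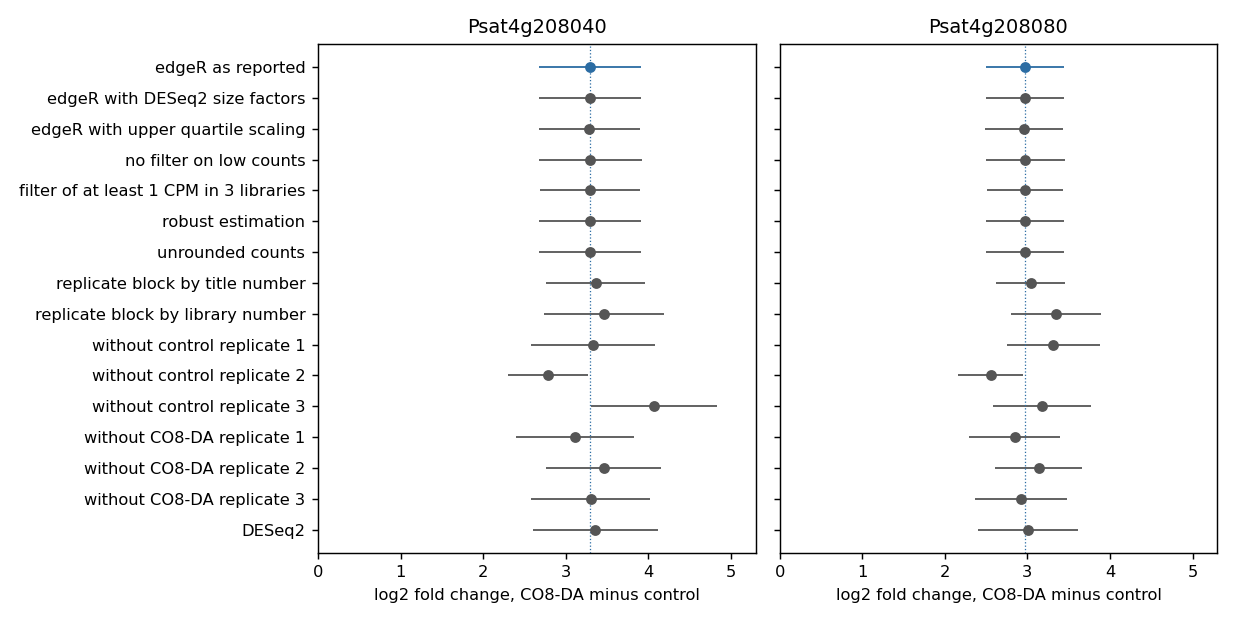
Fitted log2 fold change, CO8-DA minus control, of both loci under each setting, with bars of 1 standard error, the reported fit in blue and a dotted line at its value. All values lie above 2.5, and those without control replicate 2 are the lowest for both loci.

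Among the treated libraries the CPM of both loci were highest in replicate 1, intermediate in replicate 3 and lowest in replicate 2. Among the control libraries both loci were lowest in replicate 2, but Psat4g208040 was highest in replicate 3 and Psat4g208080 in replicate 1. The share of Psat4g208040 in the summed counts of the pair was 43.8%, 42.1% and 40.4% in CO8-DA replicates 1, 2 and 3. Over the CO8-DA group it was 42.0% of 224 counts, with an exact binomial 95% interval of 35.4% to 48.7%. Over the control group it was 36.4% of 22 counts, and the interval of 17.2% to 59.3% takes in the CO8-DA share. A different balance between the loci was therefore not detectable at the depth of the control libraries. These are shares of read counts and do not say which locus has more RNA per length.

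The estimated counts of both loci were whole numbers, within 0.005, in all 6 libraries. RSEM divides reads that fit several loci, which leaves fractions, and such fractions occur at 29.1% of the tested loci. No sign was thus seen of reads divided between the loci of this pair, although both have the same best match.

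One more locus, Psat4g218440, has the same description, RALF-like protein, with another best match, and lies further along chromosome 4 by its number. It had 7, 5 and 13 counts in control replicates 1, 2 and 3 and 227, 292 and 508 counts in CO8-DA replicates 1, 2 and 3. Its level rose from 0.604 ± 0.283 CPM in control roots to 20.7 ± 4.61 CPM in treated ones (SD, n = 3), with no overlap between the groups. The log2 fold change was 5.07 with a standard error of 0.31 (edgeR adjusted p = 0.000236), and it stayed called with any one library left out, with values between 4.87 and 5.52. The study lists this locus among its changed genes on the same samples, so the p is not independent evidence. Unlike the pair, its CPM were highest in CO8-DA replicate 3. A difference in response between this locus and the pair was not tested.

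The loci around the pair were taken by locus number, on the assumption that these numbers run along the chromosome, with 25 loci on each side. Of these 50 loci 13 had no counts in any library and 28 passed the filter. EdgeR called 3 of the 28 higher, or 10.7%, beside 2.63% of all tested loci, and none lower, beside 0.493%. The median log2 fold change of the 28 was -0.05, beside -0.01 over all tested loci. At an unadjusted p under 0.05, 4 of the 28 were higher and 1 lower, beside 10.3% and 8.85% of all tested loci. All CO8-DA libraries lay above all control libraries at 4 of the 28 and below them at 4, beside 13.7% and 11.7%. DESeq2 called 3 higher and none lower, beside 2.94% and 0.829% of the loci it tested. The 25 tested loci without a call had log2 fold changes between -0.64 and 1.13. With 50 loci on each side, 6 of 58 tested loci were called higher.

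All 3 called neighbours lie on the side of the lower numbers. The nearest is Psat4g207960, the second locus before the pair, for which the study gives no database match. It had 12, 4 and 15 counts in control roots and 58, 73 and 113 in treated ones. Its level rose from 0.737 ± 0.378 to 4.96 ± 0.708 CPM (SD, n = 3), and the fitted log2 difference was 2.72 (SE 0.36, edgeR adjusted p = 0.00627). Every treated library was above every control library, with control replicate 2 again the lowest.

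Psat4g207840, the fifth locus before the pair, is described as an ethylene response factor, a transcription factor of a family that acts in hormone and stress responses. It had 2, 0 and 0 counts in control roots and 99, 103 and 217 in treated ones. With so few control counts the fold change is given as the ratio of the summed counts, 178 with an exact interval of 48.9 to 1474 (edgeR adjusted p = 0.00079). The transcript was close to absent in control roots and present in all treated ones.

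Psat4g207480, the locus at place 13 before the pair, is described as MLO-like protein 1. MLO proteins are membrane proteins known from powdery mildew susceptibility, and in Arabidopsis some act as calcium channels downstream of RALF perception. It had 5, 5 and 16 counts in control roots and 161, 222 and 192 in treated ones. Its level rose from 0.630 ± 0.446 to 12.1 ± 2.10 CPM (SD, n = 3), and the fitted log2 difference was 4.24 (SE 0.39, edgeR adjusted p = 0.0014). All 3 neighbours stayed called with any one library left out, with adjusted p up to 0.0342.

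The locus between Psat4g207960 and the pair, Psat4g208000, had 2 counts in all, both in control replicate 3. On the other side Psat4g208120 follows the pair directly. It was measured with 686, 497 and 801 counts in control roots and 766, 894 and 1422 in treated ones, and its groups overlapped. Its level was 48.1 ± 8.45 CPM in control and 62.9 ± 8.72 CPM in treated roots (SD, n = 3), and the log2 difference of 0.39 was not called (edgeR adjusted p = 0.226). Psat4g208160 had no counts, and Psat4g208200, Psat4g208240 and Psat4g208280 had log2 fold changes of -0.38, -0.20 and -0.19, none of them called. Before the pair, Psat4g207880 and Psat4g207920 had at most 4 counts in any library and were not tested.

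**Figure D3:**
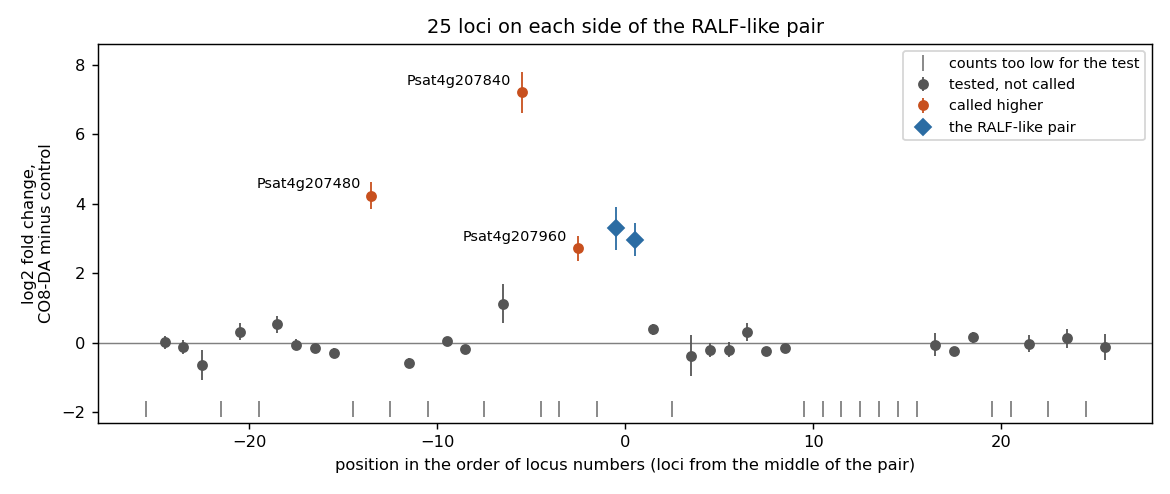
Log2 fold change, CO8-DA minus control, with bars of 1 standard error, of the tested loci among 25 on each side of the pair, in the order of their numbers. The pair is in blue, the 3 loci called higher are in orange and named, and ticks at the bottom mark loci with too few counts for the test; the value of Psat4g207840 is a fitted one from 2 control counts.

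Proteins that take part in RALF perception and in the responses to it were looked up by their descriptions in the study's supplementary lists. These lists hold its changed genes and, of all other loci, those with the highest fold changes, so a count of higher loci from them is no independent evidence. Of 24 such loci 15 passed the filter, and edgeR called 6 higher and 3 lower, beside 2.63% and 0.493% of all tested loci. Their median log2 fold change was 1.17, and DESeq2 called 9 of the 24 higher and 5 lower, beside 2.94% and 0.829% of the loci it tested. Without CO8-DA replicate 1 edgeR called 3 higher. Among the 6 is the MLO-like Psat4g207480, which was also counted with the called neighbours of the pair.

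Among the possible receptors, 3 loci are described as malectin receptor-like kinases and 1 of them passed the filter. Psat1g147480 had 2, 1 and 9 counts in control roots and 22, 18 and 34 in treated ones, and the fitted log2 difference was 2.36 (SE 0.61). It missed the threshold after correction (edgeR adjusted p = 0.0787), although its groups did not overlap and DESeq2 called it. Psat2g101120 had no control counts and 7, 4 and 9 counts in treated roots. Set against 3 counts, the most that the summed control zeros allow, its summed treated counts were 5.66-fold higher after correction for library size. This value leaves out counting error in the treated counts, and the locus was too low for the test.

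Of 4 leucine-rich repeat extensins in the study's lists, 2 were tested and 1 was called higher, beside 2.63% of all tested loci. In Arabidopsis such cell wall proteins bind RALFs. Psat6g205760 had 624, 364 and 757 counts in control roots and 1345, 1579 and 2026 in treated ones. Its level rose from 42.0 ± 12.2 to 103 ± 3.02 CPM (SD, n = 3), and the fitted log2 difference was 1.29 (SE 0.20, edgeR adjusted p = 0.0110). The treated libraries differed little from each other, and the call was lost without CO8-DA replicate 1 (adjusted p = 0.0511). Psat5g206680 had 80 counts in CO8-DA replicate 3 against 11 and 13 in the other treated libraries and was not called (edgeR adjusted p = 0.153), whereas DESeq2 called it. For this locus the estimates were not whole in 4 libraries.

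Among 4 subtilisin-like proteases, members of the enzyme family that cuts some RALF precursors, none was called higher by either tool. Of the loci they tested, edgeR called 2.63% higher and DESeq2 2.94%. At an unadjusted p under 0.05 1 of the 2 tested, Psat5g105600, was higher, beside 10.3% of all tested loci, with a log2 fold change of 1.17 and groups that overlapped. None of the estimates of Psat5g105600 was whole. Psat5g011280 fell from 128 ± 30.8 to 59.2 ± 18.2 CPM (SD, n = 3), and the fitted log2 difference was -1.12 (SE 0.25, edgeR adjusted p = 0.0467). It was no longer called without control replicate 1 or 3 or treated replicate 2 or 3 (adjusted p at most 0.179), and with robust estimation (adjusted p = 0.0579).

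All 3 loci described as proton pump interactors, proteins named for binding the plasma membrane proton pump, were called higher, beside 2.63% of all tested loci. They come from the study's own lists on these samples, so their direction is no independent evidence. Psat5g272680 had 42, 17 and 36 counts in control roots and 418, 543 and 920 in treated ones, and the fitted log2 difference was 4.04 (SE 0.27, edgeR adjusted p = 0.000294). The estimates of this locus were not whole in 3 libraries. The neighbour of Psat5g272680, Psat5g272720, rose from 3.32 ± 0.826 to 13.3 ± 0.677 CPM (SD, n = 3), and the fitted log2 difference was 2.00 (SE 0.21, edgeR adjusted p = 0.00219). Psat4g153160 had no control counts and 15, 17 and 42 counts in treated roots. Set against the same floor of 3 summed counts, its treated counts were 20.9-fold higher (edgeR adjusted p = 0.0143). This value too leaves out counting error in the treated counts. Without CO8-DA replicate 1 Psat4g153160 was not called (adjusted p = 0.0512). The estimates of Psat4g153160 were not whole in 3 libraries either. The pump itself, at 3 loci, had 1 locus above the filter, Psat3g000360, with a log2 difference of 1.06 and no call (edgeR adjusted p = 0.244).

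Respiratory burst oxidases, the enzymes that make reactive oxygen outside the cell, went both ways. Of the 4 in the study's lists edgeR called 1 higher and 2 lower, beside 2.63% and 0.493% of all tested loci. Psat3g011120 rose from 34.7 ± 10.8 to 71.3 ± 5.77 CPM (SD, n = 3), and the fitted log2 difference was 1.03 (edgeR adjusted p = 0.0314). Its call did not survive the removal of control replicate 2 or 3 or of any treated library (adjusted p at most 0.128, log2 difference down to 0.84). Psat3g140480 fell by 2.34 on the log2 scale (edgeR adjusted p = 0.00825) and stayed called with any one library left out. Psat1g135640 fell by 1.37 (edgeR adjusted p = 0.0248), a call that needed control replicate 3 and each treated library (adjusted p at most 0.0999 without one of them). With the replicate number as a block it was not called either (adjusted p = 0.0502), and its estimates were not whole in any of the 6 libraries. Psat1g135680, whose estimates were not whole in 5 libraries, had a log2 difference of -1.14 and no call (edgeR adjusted p = 0.0549), whereas DESeq2 called it lower.

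Other secreted peptides in the same lists comprised 5 leguminosins, 2 nodule cysteine-rich peptides and 1 defensin-like peptide, of which 3 passed the filter. EdgeR called 2 of these higher, beside 2.63% of all tested loci, and none lower, beside 0.493%. None of the 3 was lower at an unadjusted p under 0.05, beside 8.85% of all tested loci. DESeq2 called 2 of all 8 higher and 1 lower, beside 2.94% and 0.829% of the loci it tested. The leguminosin Psat7g102320 had 3, 0 and 2 counts in control roots and 28, 24 and 38 in treated ones, and the fitted log2 difference was 3.86 (SE 0.57, edgeR adjusted p = 0.0101). Its estimates were not whole in 5 libraries, so reads were divided with other loci. The other tested leguminosin, Psat7g102640, also with estimates not whole in 5 libraries, had a log2 difference of 1.29 and no call (edgeR adjusted p = 0.284). Psat3g000480, described as a nodule cysteine-rich peptide, rose from 3.14 ± 0.908 to 15.3 ± 1.42 CPM (SD, n = 3), and the fitted log2 difference was 2.28 (SE 0.23, edgeR adjusted p = 0.00181). Such peptides are best known from legume nodules, and the other locus with this description, Psat5g254720, had 1 to 3 counts in every library. The methods describe sterilized seeds and name no rhizobia for these seedlings. The part of nodule tissue in these levels was not tested. The defensin-like Psat4g203560 had 1, 28 and 10 counts in control roots and 0, 1 and 2 in treated ones and did not pass the filter of edgeR.

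**Figure D4:**
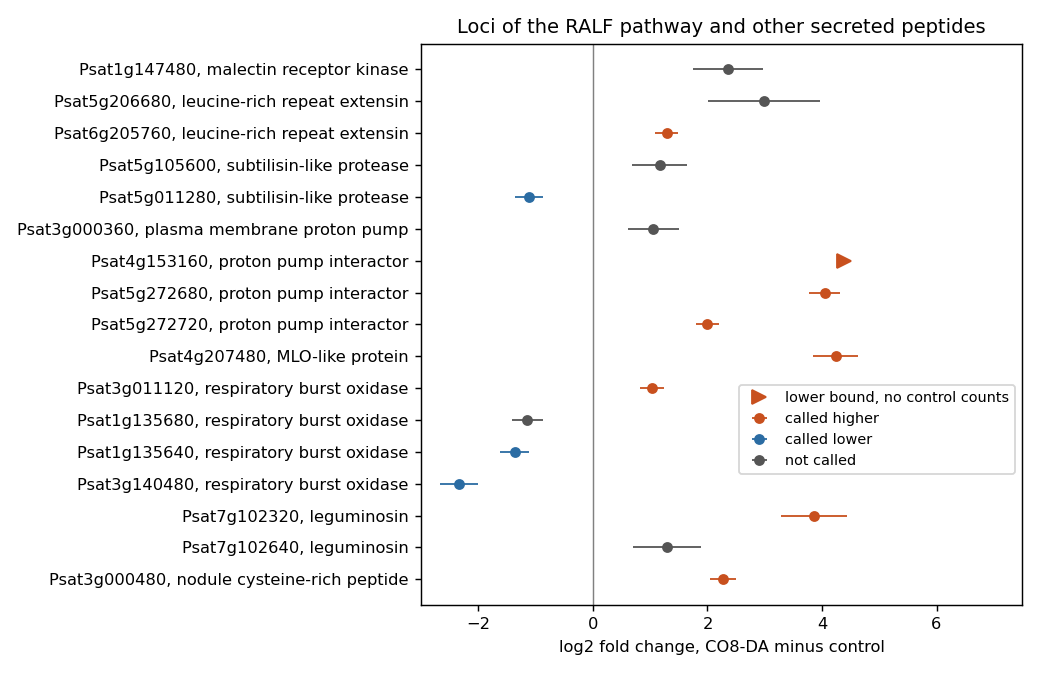
Log2 fold change, CO8-DA minus control, with bars of 1 standard error, of the loci described as proteins of RALF perception and response or as other secreted peptides that were tested and are reported here. Loci called higher are in orange, lower in blue and uncalled in grey. The triangle, labelled a lower bound, marks Psat4g153160 set against 3 summed control counts, without counting error in its treated counts. The proton pump interactors lie to the right and 3 of the 4 respiratory burst oxidases to the left of 0.

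The likeness of other loci to the pair was measured by Pearson's r of log2 CPM (prior count 2) over the 6 libraries. It is a description, since all points share the same libraries and the treatment contrast enters every value. The pair had an r of 0.992 with each other, at place 21 of the loci ordered by likeness to either member. Psat4g218440 had an r of 0.95 with each member. An r of at least 0.9 was found for 954 tested loci with Psat4g208040 and for 1089 with Psat4g208080. These are 4.48% and 5.11% of the tested loci, so a high r was not particular to the pair.

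The 5 loci most like Psat4g208040 had an r of at least 0.995. They were Psat5g135920, which has no description here, Psat2g013480, described as a TIR domain protein, Psat1g164920, an FAD-binding berberine family protein, the serine/threonine kinase Psat3g098040 and the cation-transporting ATPase Psat2g004960. Their log2 fold changes were 0.24, 1.49, 1.57, 2.99 and 2.00, so r reflects the order and spacing of the libraries and not the size of the change. The 5 loci most like Psat4g208080 had an r of at least 0.996. They were the WRKY family transcription factor Psat5g308000, the hypothetical protein Psat4g197080, Psat0s2229g0040, described as a leucine-rich repeat receptor kinase, the MATH domain protein Psat6g207920 and again Psat3g098040. Their log2 fold changes were 1.50, 1.72, 1.04, 2.67 and 2.99. Psat3g098040 is thus the only locus among the 5 most like each member, and it had 48, 12 and 49 counts in control roots and 332, 283 and 366 in treated ones. Its estimates were not whole in 5 libraries. Those of Psat0s2229g0040 were not whole in 4, and those of Psat2g013480, Psat1g164920 and Psat4g197080 in any of the 6.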

How the data were processed

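Reads were trimmed by the authors (Trimmomatic 0.39), and RSEM 1.3.1 estimated counts for each locus of the pea v1a annotation; Bowtie2 2.4.4 is also named in the submitters' processing notes, which give the versions. The estimated counts were deposited as such, not normalized. Reads that match more than 1 locus are split by RSEM, and counts were called whole within 0.005. Rounded estimates went into edgeR 4.0.16 under R 4.3.3 (TMM, filterByExpr defaults, glmQLFit, glmQLFTest, two-sided, Benjamini-Hochberg adjustment over the 21293 tested loci), and calls needed adjusted p below 0.05 and a change of 1 or more on the log2 scale. The standard error is the fold change over the square root of F. Every adjusted p is from this test unless DESeq2 1.42.0 is named. The fit was tested on simulated counts of 21293 loci, 200 of them changed. It recovered 87.0% of the changed loci and made 12 false calls. No 2 libraries of a group matched within sampling noise (chi-square per degree of freedom at least 12.4), so they differ by more than counting error. This check cannot show biological replication. Each library counts as 1 replicate because the methods describe independent biological repeats.

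Named loci are the pair, loci described as RALF-like, 5 loci on each side of the pair, called loci within 25, tested loci of the pathway and secreted peptide lists (1 of which is counted but not reported here), and the 5 most alike to each member. Descriptions come from the study's supplementary lists, and neighbours from the locus numbers. The members and lists were chosen with earlier results of these data known. Alternatives were other scalings, filters, thresholds and window widths, robust estimation, unrounded counts, DESeq2, blocks by number and each library left out. Sequences of the loci were not used here. Python 3.11.15, scipy 1.17.1 and matplotlib 3.10.9 were used for intervals and plots.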

Additional observations from a re-analysis of the deposited data

How the results depend on the processing

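The log2 fold changes of both members and of Psat4g218440 were above 0 under every setting run. In the fits with no library left out, those of Psat4g208040 lay between 3.28 and 3.46 and those of Psat4g208080 between 2.96 and 3.35. The highest of each came from the block by the libraries' own numbers. With 1 library left out they lay between 2.78 and 4.07 and between 2.56 and 3.31, highest for Psat4g208040 without control replicate 3. The few control counts of the pair, 8 and 14 in all, limit how well its fold changes are known. Over all loci, 561 were called higher and 105 lower. These counts were 338 to 778 and 33 to 165 with 1 library left out, 289 and 26 at an adjusted p under 0.01, and 256 lower with no fold change threshold, while DESeq2 called 196 lower. With the libraries' own numbers as a replicate block the counts were 888 and 206. In that fit control replicate 1 and CO8-DA replicate 3 share their number with no other library. They thus add nothing to the contrast, which rests on the remaining libraries. Whether the replicate numbers of the titles pair the libraries is not settled by the data (correlations of deviations 0.23, 0.04 and 0.15, with 5 of 6 libraries closest to their own number), so they were not treated as pairs. That replicate block gave 588 higher and 118 lower loci, with log2 fold changes of 3.36 and 3.04 for the pair. In the surroundings 50 loci on each side gave 6 called loci in place of 3. In the list of proteins of RALF perception and of the responses to it, loci called higher numbered 3 to 6 with 1 library left out. The cause of these shifts was not tested.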
